A study of Mus musculus with 9 samples.

Results

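Of 124860 accessible regions measured by ATAC-seq in sorted epithelial cells of the mouse mammary gland, 5204 (4.17%) were stably open in luminal cells that carry the oestrogen receptor (ER+ luminal). These regions had at least 4 times the signal, as a log2(signal + 1) difference of 2 or more, in ER+ luminal cells than in both ER- luminal and basal cells, at puberty and again in adults. The ER+ luminal signal also had to reach 20 units of the deposited normalized signal at both stages. The 3 pregnancy libraries played no part in the choice and serve as held-out values. The signal that chose the regions at puberty and in adults is given as a description, with no test.

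In ATAC-seq the Tn5 transposase cuts and tags DNA that is not packed away by nucleosomes, so that open promoters and enhancers collect reads. ER+ luminal cells are the hormone-sensing cells of the gland. They receive oestrogen and progesterone signals and pass them on to their neighbours by secreted factors. ER- luminal cells include the progenitors of the milk-producing alveoli, and basal cells are the contractile cells that surround them. Regions that are open in 1 cell type and closed in its neighbours are often enhancers that keep up the expression programme of that type. In pregnancy the gland builds alveoli under the control of progesterone and prolactin.

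Cell sorting by FACS gave ER+ luminal, ER- luminal and basal cells of pubertal, adult and mid-pregnant mice, and each library used 100000 cells. Every library came from mice of the genotype ERrtTA/TetOCre/rosaYFP, in which a drug-dependent activator made in ER-expressing cells can switch on Cre and a YFP reporter. Each of the 9 combinations of cell type and stage had 1 library, so no value has a replicate of its own cell type and stage. The ages, the number of animals behind a library, any drug treatment and the gate that parted ER+ from ER- cells are not stated by the labels.

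The regions are named by a running number alone, so genes, coordinates and sequences were not analysed here and the sorted cells were not checked against marker genes. Depth in regions was 6679907 to 11328189 reads in the 6 puberty and adult libraries, and 2641254, 3418164 and 2186941 reads in the ER+ luminal, ER- luminal and basal pregnancy libraries. A count of 0 reads in those pregnancy libraries allows up to 3 reads, or 5.09, 4.55 and 6.60 units. A member region held a median of 14 reads in the ER+ luminal, 6 in the ER- luminal and 5 in the basal pregnancy library. Ratios of single regions in pregnancy therefore carry wide counting errors, which are given beside them.

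The regions were bright in ER+ luminal cells at puberty and in adults, and much dimmer there in pregnancy. In ER+ luminal cells the median signal was 73.6 units at puberty (quartiles 46.3 to 114), 71.0 in adults (45.3 to 109) and 23.7 in pregnancy (15.3 to 37.3). In ER- luminal cells it was 10.0 units at puberty, 5.20 in adults and 9.10 in pregnancy. In basal cells it was 8.71, 7.89 and 11.0 units at the same stages. The ER+ luminal quartiles thus stood clear of the other cell types at puberty and in adults, as the rule required. In pregnancy the lower ER+ luminal quartile, 15.3 units, lay close to the upper basal quartile, 15.4 units. Few members lacked reads altogether. In pregnancy 10 members had no ER+ luminal read, 65 no ER- luminal read and 143 no basal read.

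**Figure D1:**
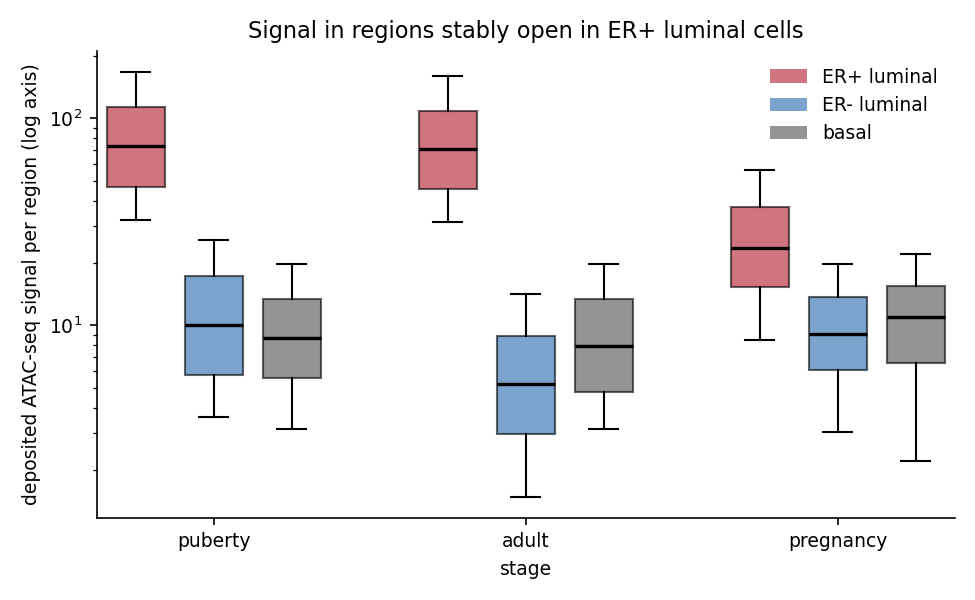
Deposited ATAC-seq signal on a log axis in the 5204 regions stably open in ER+ luminal cells, by stage and cell type, 1 library each. Boxes span the quartiles with the median as a line, and whiskers reach the 10th and 90th percentiles. The ER+ luminal median is 73.6 at puberty, 71.0 in adults and 23.7 in pregnancy, where the 3 boxes come close to each other.

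Read shares sum over all members, but the puberty and adult values chose them, which favours a lower ER+ luminal share in pregnancy. The share of each library's reads that fell in these regions is therefore given as a description. It was 7.78% in ER+ luminal cells at puberty, 7.79% in adults and 3.34% in pregnancy (95% Clopper-Pearson interval 3.32% to 3.36% in pregnancy). In ER- luminal cells it was 1.09%, 0.67% and 1.09% at the 3 stages (1.08% to 1.10% in pregnancy), and in basal cells 0.917%, 0.838% and 1.23% (1.22% to 1.25% in pregnancy). Such intervals treat reads as independent, which reads copied by PCR are not. They also leave out any spread between libraries or animals. In the held-out stage the ER+ luminal library still put the largest share of its reads of the 3 libraries into these regions.

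The margin of a region is its ER+ luminal log2(signal + 1) minus the higher of the ER- luminal and basal values of the same stage. The median margin was 2.51 at puberty and 2.79 in adults, where the rule set its lowest value, and 0.87 in pregnancy (quartiles 0.25 to 1.47). Over all regions the median margin in pregnancy was -0.37. ER+ luminal cells had the highest signal of the 3 cell types in 4245 members in pregnancy (81.6%), where 33.0% of all regions did. Basal cells were highest in 537 members and ER- luminal cells in 422. A margin of 2-fold or more was kept in 2328 members (44.7%), against 9.01% of all regions. A margin of 4-fold or more was kept in 528 members (10.1%), against 1.5% of all regions. The larger part of the set thus still leaned towards ER+ luminal cells in pregnancy, and about 1 in 10 met the fold that had chosen it. The share at 4-fold was 20.6% after quantile normalization and 5.15% with 4 units added in place of 1. Taken against 1 cell type at a time, 1253 members (24.1%) were at least 4-fold above ER- luminal cells and 1185 (22.8%) at least 4-fold above basal cells, where 5.50% and 6.01% of all regions were.

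**Figure D2:**
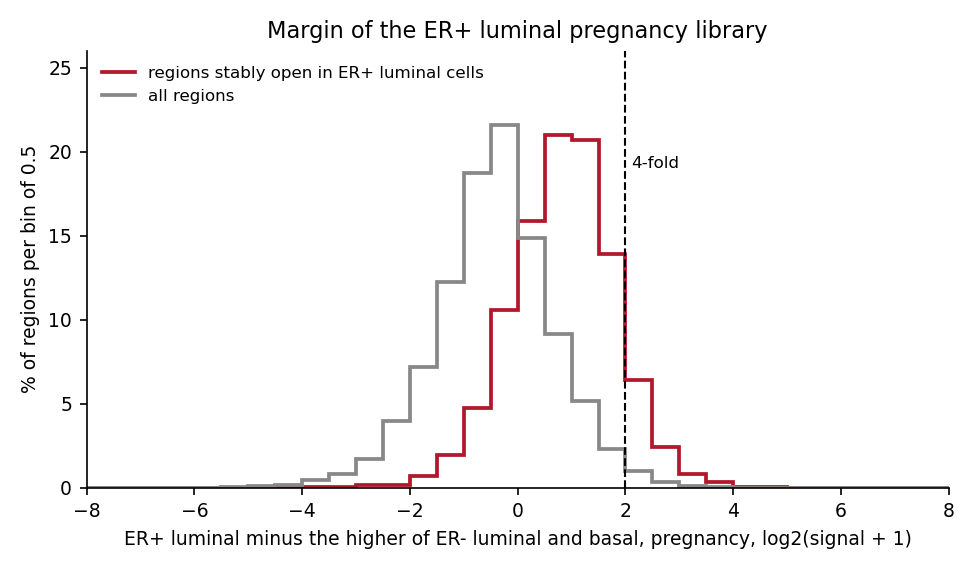
Margin of ER+ luminal over the higher of ER- luminal and basal signal in the 3 pregnancy libraries, as the percentage of regions in bins of 0.5 on the log2 scale, for the 5204 regions stably open in ER+ luminal cells and for all 124860 regions. The member curve has its median at 0.87 and that of all regions at -0.37, and the dashed line marks the 4-fold margin that 528 members kept.

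The same held-out contrast was fitted with limma across all regions on the 3 pregnancy libraries, as ER+ luminal minus the mean of ER- luminal and basal. The median log2 difference was 1.28 over the members and -0.02 over all regions. It was positive in 4698 members (90.3%) and in 49% of all regions. No member and no other region reached a Benjamini-Hochberg adjusted p under 0.05 (0.00% of regions called), and the smallest adjusted p among members was 0.866 in limma. An unadjusted limma p under 0.05 was reached by 1039 members, of which 1028 were higher in ER+ luminal cells (19.8% of members, against 2.43% of all regions higher). The quasi-likelihood test of edgeR on the recovered reads called 1 member, merged39741. The fit has 1 residual degree of freedom. A region's own error is the difference between its ER- luminal and basal values. limma draws it towards a variance trend over all regions, which weighs more, with 14.5 prior degrees of freedom. The lone ER+ luminal library is assumed to vary likewise.

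Single regions show how far the held-out values spread. The brightest member, merged23525, had 462, 484 and 137 units in ER+ luminal cells at puberty, in adults and in pregnancy. Its ER- luminal values at these stages were 45.9, 11.9 and 25.8 units, and its basal values 45.1, 35.5 and 15.4. Its pregnancy signal in ER+ luminal cells was 5.33 times that in ER- luminal cells, with a 95% counting interval of 3.13 to 9.59. It was therefore the highest in ER+ luminal cells at every stage, at a lower level in pregnancy.

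The widest margin in pregnancy belonged to merged39741. It had 38.4, 36.8 and 50.9 units in ER+ luminal cells at puberty, in adults and in pregnancy. In ER- luminal cells it had 2.87, 3.71 and 0 units, and in basal cells 3.17, 3.16 and 0. Its ER+ luminal signal in pregnancy thus lay above both earlier values, while neither other pregnancy library held a read. Set against 3 reads per library, its signal was 11.2 times that in ER- luminal and 7.71 times that in basal cells, which leaves out the counting error of its own 30 reads. With that error the lower 95% limit over ER- luminal cells was 8.54. The log2 difference was 5.70 (SE 1.18, limma adjusted p = 0.866 and edgeR adjusted p = 0.0165). The next, merged66336, had 46.3, 66.7 and 30.5 units in ER+ luminal cells at the 3 stages, 5.73, 0.743 and 0 in ER- luminal cells and 3.17, 5.52 and 0 in basal cells. Set against 3 reads per library, its pregnancy signal was 6.71 times that in ER- luminal and 4.62 times that in basal cells. With the counting error of its 18 reads, the lower 95% limit over ER- luminal cells was 4.91. The limit over basal cells was not computed here either and would be lower.

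Other members turned round in the held-out stage. Region merged22879 had 31.6 and 48.7 units in ER+ luminal cells at puberty and in adults but 3.39 in pregnancy, from 2 reads. In ER- luminal cells it had 5.73, 2.97 and 7.58 units at the 3 stages, and in basal cells 6.33, 4.74 and 30.8. The ratio of ER+ luminal to basal signal in pregnancy was 0.11, and its 95% counting interval ran between 0.0121 and 0.479. Region merged47711 had 51.5, 57.3 and 3.39 units in ER+ luminal cells, 11.5, 0.743 and 24.3 in ER- luminal cells and 2.37, 2.37 and 15.4 in basal cells. Its ratio of ER+ luminal to ER- luminal signal in pregnancy was 0.14, with an interval of 0.0156 to 0.594. Of the 5204 members 23 were at least 4-fold below the higher other cell type in pregnancy. These regions stand at the ends of the range and were picked for it, so their values describe the range and no more.

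The narrowing of the margin came with a lower ER+ luminal signal more than with a higher signal elsewhere. Between pregnancy and the mean of the earlier stages, the ER+ luminal log2 value differed by a median of -1.57 (quartiles -2.17 to -1.05) and the higher of the other cell types by 0.27 (-0.26 to 0.76). Of the 4676 members below 4-fold in pregnancy, 3741 (80%) had an ER+ luminal signal at least 2-fold lower than before, 816 (17.5%) had a signal at least 2-fold higher in the other cell types, and 505 had both. In 624 members (13.3%) neither changed by 2-fold. These shares were not counted over all regions. Of the 528 members that kept the margin, 256 (48.5%) also had an ER+ luminal signal at least 2-fold lower. Set against adults alone, 75.4% of all members and 22.3% of all regions had an ER+ luminal signal at least 2-fold lower. ER- luminal signal was at least 2-fold higher than in adults in 35.0% of members and 15.4% of all regions. Basal signal was so in 22.3% of members and 19.3% of all regions. The rule chose high early ER+ luminal values and capped the others. That favours a lower ER+ luminal and a higher other value in pregnancy, so this split is a description.

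Adult and pubertal ER+ luminal signal hardly differed in the members, with a median log2 difference of -0.05 and 190 members at least 2-fold lower and 159 at least 2-fold higher in adults. Both stages had been chosen for a high value, which limits how far they can part. Pregnancy signal was at least 2-fold below adult signal in 3923 members (75.4%) and above it by as much in 0, where 22.3% of all regions were lower and 24.4% higher. Against puberty 3975 members (76.4%) were at least 2-fold lower, where 21.2% of all regions were. Since the members were chosen for high puberty and adult values, a lower pregnancy value is favoured by the choice. The levels of the 3 stages were correlated across the 5204 members, which share libraries and were cut at 20 units. Spearman's rho was 0.803 between puberty and adult levels, 0.549 between adult and pregnancy levels and 0.533 between puberty and pregnancy levels. The margins had a rho of 0.181, 0.164 and 0.102 for the same pairs. The rule cut the puberty and adult margins at 2, which lowers such a rho, so nothing is read from these low values.

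Regions chosen at 1 early stage were also followed in the other early stage, which is then held out as pregnancy is. Of the 7475 regions that met the ER+ luminal rule at puberty, 71.8% were at least 4-fold above both other cell types in adults and 8.01% in pregnancy, against 11.4% and 1.5% of all regions. Of the 11492 that met it in adults, 47.4% did so at puberty and 8.0% in pregnancy, against 7.03% and 1.5% of all regions. The same shares were taken at equal depth, which evens out read totals alone. With all libraries thinned to the reads of the shallowest, 60.9% of 7373 regions chosen at puberty kept the margin in adults and 7.89% in pregnancy. At that depth 11.6% and 1.74% of all regions had it. Of 11268 regions chosen in adults at equal depth, 41.2% kept it at puberty and 8.24% in pregnancy, against 7.63% and 1.74% of all regions. The cause of the lower shares in pregnancy was not tested.

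**Figure D3:**
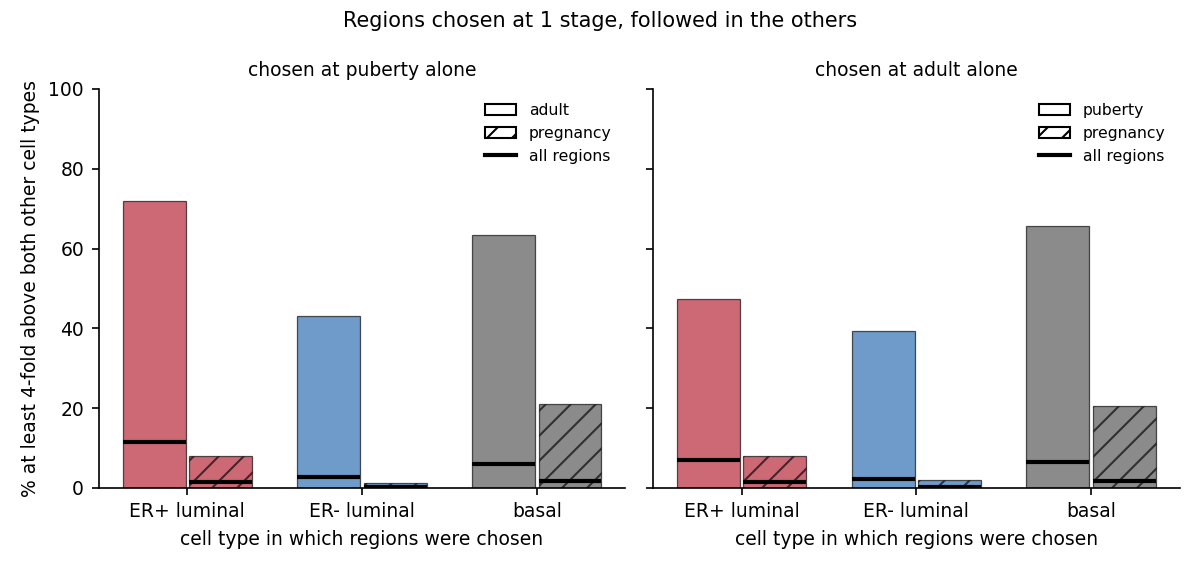
Percentage of regions at least 4-fold above both other cell types in a stage that did not choose them, for regions chosen by the rule at puberty alone (left) or in adults alone (right) in ER+ luminal, ER- luminal or basal cells. Plain bars are the other early stage, hatched bars are pregnancy, and black lines are all regions. For ER+ luminal cells the plain bars stand at 71.8% and 47.4% and the hatched bars at 8.01% and 8.0%.

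Regions chosen by the same rule in the other cell types were followed in the same way. Of those chosen at puberty, 43.0% in ER- luminal and 63.3% in basal cells kept the 4-fold margin in adults (all regions 2.75% and 5.94%), and 1.33% and 21.0% kept it in pregnancy. Of those chosen in adults, 39.3% in ER- luminal and 65.6% in basal cells had it at puberty (all regions 2.18% and 6.51%), and 1.97% and 20.4% in pregnancy. There were 866 regions stably open in ER- luminal and 3387 stably open in basal cells by the rule at both early stages. In pregnancy 2.08% of the ER- luminal regions and 28.8% of the basal regions were at least 4-fold above both other cell types, against 10.1% of the ER+ luminal regions. The corresponding shares of all regions were 0.304% for ER- luminal, 1.82% for basal and 1.5% for ER+ luminal cells. The cell type of the choice itself was lower in pregnancy than in adults by a median log2 difference of -1.54 in the ER+ luminal, -0.43 in the ER- luminal and -0.45 in the basal set. These differences between sets come from 1 library each and were not tested.

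The ER+ luminal pregnancy library carried more signal in the regions of both other cell types than the earlier ER+ luminal libraries did. In regions stably open in ER- luminal cells its median was 18.6 units, after 5.78 at puberty and 4.28 in adults. In regions stably open in basal cells it was 13.6 units, after 2.1 at puberty and 3.42 in adults. Its signal in regions stably open in ER+ luminal cells was lower at the same time, at 23.7 units. Over all regions the lower quartile of ER+ luminal signal was higher in pregnancy too, at 8.48 units after 4.73 at puberty and 5.99 in adults. The 90th percentile over all regions was lower, at 83.1 units after 139 and 125. The other pregnancy libraries shared this pattern. In ER- luminal cells the lower quartile over all regions was 7.58 units, after 5.02 at puberty and 5.20 in adults. In basal cells it was 8.80 units, after 6.33 and 5.52. The 90th percentile was 106 units in ER- luminal cells, after 133 and 120, and 101 in basal cells, after 126 and 140. The ER- luminal and basal pregnancy libraries also had higher values in some of each other's regions, with 19.8 units in basal cells at regions stably open in ER- luminal cells, after 7.12 and 8.68. The rule had capped the puberty and adult signal of each cell type in the regions of the others. That favours a higher value there in pregnancy, so these medians are a description. The part of these signals in the narrower margin was not tested. In sorted cells sampled once, fewer cells with a region open and a region less open in each cell cannot be told apart.

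**Figure D4:**
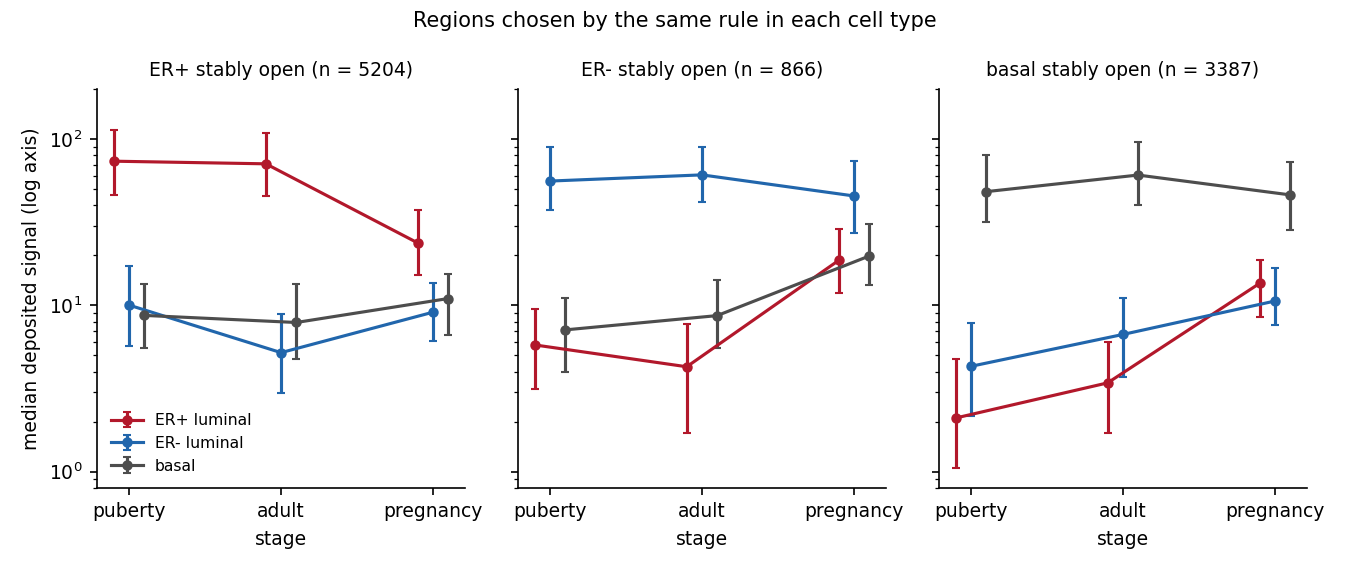
Median deposited signal on a log axis at the 3 stages in regions chosen by the same rule in ER+ luminal (5204 regions), ER- luminal (866) and basal cells (3387). Points are 1 library each and bars span the quartiles over regions. In the ER+ luminal set the ER+ luminal line ends at 23.7, and in the other sets it ends at 18.6 and 13.6, above its earlier points.

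Among all regions bright in ER+ luminal cells, the members differed from the others in their pregnancy signal at each level of earlier brightness. Another 43353 regions had 20 units or more in both earlier ER+ luminal libraries without meeting the fold. Their median log2 difference between pregnancy and adult ER+ luminal signal was -0.52, against -1.54 in the members. Members with an earlier level of 20 to 40 units had a median log2 difference of -1.16 between pregnancy and the mean of the earlier stages, against -0.42 in the others. At 40 to 80 units the medians were -1.48 and -0.69, at 80 to 160 units -1.78 and -0.67, and at 160 units or more -1.97 and -0.46. Members thus had a larger difference the brighter they had been, and the other regions did not. At the last level 95.5% of 513 members and 22.2% of 8787 other regions were at least 2-fold lower in pregnancy. Membership was itself decided by the earlier values, so these medians are a description.

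Brighter members nevertheless kept their margin more often. In 4 equal groups of 1301 members by earlier ER+ luminal level, 6.99%, 7.53%, 9.76% and 16.3% were at least 4-fold above both other cell types in pregnancy, in order of increasing level. The median margin in these groups was 0.59, 0.77, 0.90 and 1.17, and the median ER+ luminal signal in pregnancy was 15.3, 20.3, 27.1 and 42.4 units. In equal groups by earlier margin the shares were 5.38%, 8.53%, 11.2% and 15.4%. A low region has few reads in pregnancy, and its ratios are noisier.

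The threshold cut through a continuous range. There were 749 members with a lower early margin between 2 and 2.1 and 739 bright regions outside the set with one between 1.9 and 2. In pregnancy 6.28% of those inside and 5.01% of those outside were at least 4-fold above both other cell types, and the median ER+ luminal signal was 20.3 units in both. The member nearest to the threshold, merged5712, had 47.3, 101 and 10.2 units in ER+ luminal cells at puberty, in adults and in pregnancy. The nearest region outside, merged287, had 123, 119 and 25.4 units there.

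ER- luminal and basal cells, in which the rule only capped the signal, were compared to see whether members were equally closed in both. At puberty more members were higher in ER- luminal cells, in adults most were lower there, and in pregnancy they were near balance. The median log2 difference of ER- luminal minus basal signal was 0.19 at puberty (0.33 after quantile normalization and 0.04 at equal depth), -0.47 in adults (-0.38 and -0.43) and -0.10 in pregnancy, where it turned to 0.03 after quantile normalization and was -0.08 at equal depth. ER- luminal signal was the higher in 60.2% of members at puberty, 29.3% in adults and 47.1% in pregnancy, where it was so in 48.4%, 46.1% and 50.4% of all regions. In adults 1471 members (28.3%) were at least 2-fold lower in ER- luminal cells and 239 (4.59%) at least 2-fold higher, against 21.7% and 19.7% of all regions. At puberty 6.23% were at least 2-fold lower and 13.2% higher (all regions 22.9% and 19.4%), and in pregnancy 17.9% and 14.8% (all regions 19.7% and 15.4%). The adult ER- luminal library was the low one, with a median of 5.20 units beside 10.0 at puberty and 9.10 in pregnancy. Basal cells were the higher of these cell types at both early stages in 1460 members and ER- luminal cells in 919. In pregnancy basal cells were the higher in 56.2% of the first group and ER- luminal cells in 53.4% of the second. Over all 5204 members basal cells were so in 2742 and ER- luminal cells in 2450 (47.1%).

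**Figure D5:**
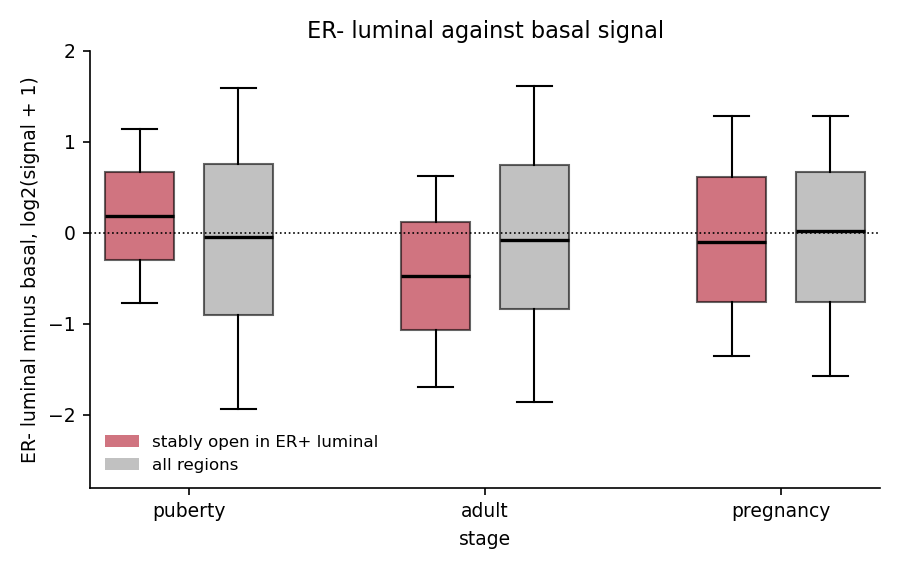
ER- luminal minus basal log2(signal + 1) at the 3 stages, in the 5204 regions stably open in ER+ luminal cells and in all regions. Boxes span the quartiles over regions with the median as a line, and whiskers reach the 10th and 90th percentiles. The member medians are 0.19, -0.47 and -0.10, and those of all regions lie between -0.08 and 0.02.

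Fitted with limma over the 6 ER- luminal and basal libraries with stage as a covariate, 17 members were higher and 25 lower in ER- luminal cells at an adjusted p under 0.05. Together they made up 0.807% of members, against 21.6% of all regions, of which 9.15% were called higher and 12.5% lower. Of the 6 libraries 4 had entered the rule, which capped both cell types alike without setting their difference. The cap leaves little room for a large difference and few reads behind it, so nothing is read from the low share of calls. The median log2 difference over the members was -0.13, and -0.01 over all regions, and 40.7% of members were positive (50% after quantile normalization). The 17 higher members had medians of 28.0, 33.4 and 44.0 units in ER- luminal cells at the 3 stages, against 11.9, 18.9 and 11.0 in basal cells. The 25 lower members had 17.2, 5.20 and 6.07 units in ER- luminal cells, against 20.6, 24.5 and 24.2 in basal cells. In none of the 42 called members was the pregnancy margin of ER+ luminal cells 4-fold, against 10.1% of all members and 1.5% of all regions. The fit and the margin use the same pregnancy values, and the margin subtracts the higher of these cell types. A called difference therefore favours a low margin, and nothing is read from this count.

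The largest difference in each direction among the brighter called members is given by region. Region merged41326 had 25.1, 34.2 and 51.6 units in ER- luminal cells at puberty, in adults and in pregnancy, against 10.3, 18.9 and 2.2 in basal cells. Its ER+ luminal signal was 153, 209 and 66.1 units. The log2 difference was 2.02 (SE 0.50, limma adjusted p = 0.0015), higher in ER- luminal cells at 3 of 3 stages. It was 1.01 without either pregnancy library, with an adjusted p of 0.239 without the ER- luminal and 0.128 without the basal one in limma. Region merged89614 went the other way, with 21.5, 5.94 and 3.03 units in ER- luminal cells against 40.4, 42.6 and 50.6 in basal cells, and 176, 174 and 76.3 in ER+ luminal cells. The log2 difference was -2.40 (SE 0.47, limma adjusted p = 7.95e-05), lower in ER- luminal cells at 3 of 3 stages.

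The count of called members rested on single libraries. Without the ER- luminal or the basal puberty library 45 and 47 members were lower in ER- luminal cells, and without the ER- luminal or the basal adult library 3 and 1 were. The number higher was 7 without ER- luminal puberty, 10 without basal puberty, 11 without either adult library, 7 without ER- luminal pregnancy and 8 without basal pregnancy. The median over the members turned to 0.06 without either adult library.

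Pregnancy was set against the mean of puberty and adult in the same 6 libraries, with cell type as a covariate, to ask whether the members opened outside ER+ luminal cells. The puberty and adult values of this contrast had been capped by the rule, which favours a higher pregnancy value, so what follows describes the members and does not test them. The median log2 difference was 0.21 over the members and 0.06 over all regions, and 4 members passed the threshold of the fit over all regions as higher and 21 as lower (limma adjusted p under 0.05). These were 0.48% of members, against 2.0% of all regions, with 0.502% called higher and 1.5% lower. After quantile normalization the members' median turned to -0.06. By cell type, the median difference between pregnancy and adult signal was 0.64 in ER- luminal cells (0.38 after quantile normalization) and in basal cells 0.22, where it turned to -0.08 after quantile normalization. At least 2-fold higher signal in pregnancy was found in 35.0% of members in ER- luminal and 22.3% in basal cells, against 15.4% and 19.3% of all regions. Against puberty the ER- luminal median was -0.15 and the basal one 0.12, which turned to -0.11 after quantile normalization.

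The 4 members past the threshold as higher had medians of 40.2 units in ER- luminal and 24.2 in basal cells in pregnancy, against 7.88 and 7.52 at puberty and 6.31 in both in adults. Of these, merged1457 had 15.2 units in ER- luminal and 15.4 in basal cells in pregnancy, against 0.717 and 0.792 at puberty and 1.49 and 3.95 in adults (log2 difference 2.71, SE 0.75). Its ER+ luminal signal was 23.7, 22.2 and 13.6 units, so that in pregnancy the 3 cell types were nearly level. The 21 past it as lower had medians of 4.55 units in ER- luminal and 2.2 in basal cells in pregnancy, against 31.5 and 19 at puberty and 11.9 and 22.9 in adults. Among them merged64694 had 4.55 and 0 units in pregnancy, against 18.6 and 16.6 at puberty and 4.46 and 31.6 in adults (log2 difference -2.74, SE 0.69). Its ER+ luminal signal was 125, 145 and 67.8 units. Of these 21 members 12 had a pregnancy margin of 4-fold or more, which uses the same pregnancy values.

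These counts also rested on single libraries. Without the ER- luminal puberty library 1 member was higher and 2 were lower, without the basal puberty library 6 and 34, and without the basal adult library 1 and 0. Without the ER- luminal adult library 2 were higher and 22 lower, without ER- luminal pregnancy 1 and 50, and without basal pregnancy 3 and 13. Region merged1457 no longer passed without any 1 of these libraries other than basal puberty, and merged64694 without ER- luminal puberty, basal adult or basal pregnancy.

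Members often carried consecutive running numbers. Of the 5204 members 511 (9.82%) were followed by another member, while members made up 4.17% of all regions, and 959 (18.4%) had a member on at least 1 side. They formed 390 runs of 2 and 58 runs of 3 or more, and the longest run held 5. Of the 3387 regions stably open in basal cells (2.71% of all regions) 10.8% were followed by another of their set. Of the 866 stably open in ER- luminal cells (0.694% of all regions) 4.04% were. No source used here states whether the numbers follow the order along the chromosomes. Members beside another member kept the 4-fold margin in pregnancy in 10.6% of cases and members with none beside them in 10.0%, so the pregnancy values hardly differed with the company of other members. Across the 511 pairs of consecutive members, which share their libraries, Spearman's rho of the pregnancy margins was 0.0931.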

How the data were processed

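The deposited table holds 1 normalized signal value per region and library. The submitters' processing notes name MACS2 2.1.0.20151222, Bowtie2 2.2.6, Picard and SAMtools and the build GRCm38 (mm10). The merging of peaks, the scaling of values and any shift for the Tn5 cut are not stated there. In every library 100% of values were, to 0.02 reads, multiples of a smallest unit between 0.526 and 2.2, which was taken as 1 read. Column names gave cell type and stage, with p and m after the receptor read as plus and minus.

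Members were chosen by the stated rule. The members, comparisons and alternatives were chosen with earlier results of these data known. Fits across all regions used limma 3.58.1 in R 4.3.3 on log2(signal + 1), with a variance trend and no filter, which understates changes of low regions. P-values measure departures between single libraries, not animals. The error of a region came mostly from the variance trend over all regions and less from its own spread. In both fits of ER- luminal and basal cells the prior had 62.9 degrees of freedom, against 2 residual ones. edgeR 4.0.16 on the recovered reads was an alternative and called 1 member in the held-out contrast, 12 higher and 18 lower in ER- luminal against basal cells, and 4 higher and 2 lower in pregnancy. Thinned libraries had 2186941 reads each. Regions were named as the brightest member, the 2 widest and 2 lowest pregnancy margins with 20 units in the higher library, the largest called difference per direction in each of the other fits with a higher-group mean at or above the members' median (10.3 and 11.1 units), and the regions nearest the threshold.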

Additional observations from a re-analysis of the deposited data

Results flagged for a closer look

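For 3 contrasts the medians over the regions stably open in ER+ luminal cells had opposite signs in a pair of groups, and the pair furthest apart is given. Each median comes from 1 library per group, so these differences were not tested. The puberty and adult values chose the members, high in ER+ luminal and low in the other cell types, which favours a lower ER+ luminal and a higher ER- luminal or basal value in pregnancy. Between pregnancy and adults the median log2 difference of ER- luminal cells was 0.64 and that of ER+ luminal cells -1.54, 2.18 apart. Between pregnancy and puberty it was 0.12 in basal and -1.63 in ER+ luminal cells, 1.75 apart, and the basal median turned to -0.11 after quantile normalization. ER- luminal minus basal signal had a median of -0.47 in adults and 0.19 at puberty, 0.657 apart.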

How the results depend on the processing

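No paired analysis was possible because each cell type and stage had 1 library, so that any 2 groups share a single replicate number. The ER- luminal and basal libraries were matched by stage, or by cell type, within the fits. Each value below is read beside the value of the report. The 5204 members became 3345 with 4 units added, 2853 after quantile normalization, 9157 with a log2 difference of at least 1.5, 356 with one of at least 3 and 11492 when chosen in adults alone. The share of members with a 4-fold margin in pregnancy, 10.1%, became 5.15% with 4 units added, 20.6% after quantile normalization and 19.1% with a log2 difference of at least 3, and the share with ER+ luminal signal at least 2-fold lower in pregnancy than in adults, 75.4%, stayed within 1.5 times under every alternative run. In the held-out contrast edgeR called 1 member higher in place of 0.

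For ER- luminal against basal cells, 17 members higher and 25 lower became 11 and 14 with 0.25 units added, 26 and 13 after quantile normalization, 4 and 5 at equal depth, 2 and 11 without a variance trend, 11 and 12 with all 9 libraries, and 6 and 8 with stage left out of the model. Leaving out 1 library gave 7 to 11 higher and 1 to 47 lower. For pregnancy against the earlier stages in these cells, 4 higher and 21 lower became 0 and 7 with 0.25 units added, 0 and 0 at equal depth, without a variance trend and with cell type left out, and 0 and 255 with all 9 libraries. The number higher was 19 with 4 units added and 1 after quantile normalization, and edgeR called 2 lower. Leaving out 1 library gave 1 to 6 higher and 0 to 50 lower. The cause of these shifts was not tested, except that all 9 libraries bring in the ER+ luminal values that chose the members. Region merged89614 kept its call under all 15 alternatives, merged41326 under 11 of them, merged64694 under 7 and merged1457 under 4.

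Members had a median of 5 to 14 reads in a pregnancy library, which limits the precision of single regions, and each group had 1 library.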
